A study of Mus musculus with 16 samples.

Results

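The genes described here are 7 markers of liver sinusoidal endothelial cells (Lyve1, Stab1, Stab2, Clec4g, Kdr, Pecam1 and Oit3) and 3 signals of the Wnt pathway that liver endothelium makes (Wnt2, Wnt9b and Rspo3). They were chosen by gene name, and each of the 10 has 1 row among the 55421 genes of the count table. All 10 passed the filter of at least 10 counts in total and were among the 23018 genes tested. HIRA, a chaperone, loads the variant histone H3.3 onto chromatin, and the study asked what its loss does in hepatocytes and whether regeneration changes those effects.

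The data are poly-A RNA-seq of whole liver from male mice in 4 groups of 4 libraries. HIRA was deleted in hepatocytes by AAV8-Tbg-Cre in HIRA fl/fl mice or by AAV8-Tbg-saCas9 with a guide to HIRA in wildtype mice (HIRA KO). The controls were wildtype mice given AAV8-Tbg-Cre, or AAV8-Tbg-saCas9 with a guide to Rosa26, so every group carried AAV8 and a nuclease or recombinase under the Tbg promoter. That promoter drives expression in hepatocytes, so the endothelial cells were not the target. By the labels each group holds 2 libraries of each approach, but the columns of the tables are numbered 1 to 4 without naming the approach or the mouse. Virus was given at 6 months of age, a partial hepatectomy followed after 4 weeks and gave the tissue called before, and what was left of the liver was taken another 5 days on and is called after. Before and after therefore differ in lobe and in the way of collection as well as in regeneration, and these cannot be told apart. Nothing in the tables ties a before library to an after library of the same mouse.

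Sinusoidal endothelial cells line the capillaries between plates of hepatocytes. They are perforated, lack a full basement membrane, and clear waste from blood through scavenger receptors such as the stabilins Stab1 and Stab2 and the hyaluronan receptor Lyve1. Endothelial cells around the central vein also make Wnt2, Wnt9b and the Wnt enhancer Rspo3. These proteins act on Frizzled, LRP and LGR receptors of nearby hepatocytes, stabilise beta-catenin, and keep the pericentral hepatocyte genes on, among them glutamine synthetase (Glul) and Cyp2e1.

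Total counts ran from 15103059 to 21738619 per library, with a median of 18337571. Hira itself, the deleted gene, lay between 3.13 and 4.38 CPM (counts relative to the scaled library size) in HIRA KO before and between 5.21 and 6.18 in control before. After regeneration it lay between 3.03 and 4.56 in HIRA KO and between 4.99 and 6.29 in control, so the groups did not overlap at either time. By edgeR's quasi-likelihood test with Benjamini-Hochberg adjustment its adjusted p was 0.129 before and 0.0666 after. The HIRA KO libraries numbered 1 and 2 stood apart from those numbered 3 and 4 at both times in several of the genes below. Values of HIRA KO against control are also given without them. The labels do not say whether the numbers follow the deletion approach, and setting the numbers apart was not planned.

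All 10 genes are protein coding and lie on the minus strand of mm10. By GENCODE M21 Stab1 is at chr14:31139013-31168641, Stab2 at chr10:86841198-87008025, Oit3 at chr10:59422958-59441778 and Rspo3 at chr10:29452416-29535867. Lyve1 is at chr7:110850607-110863239, Clec4g at chr8:3707064-3720651 and Kdr at chr5:75932827-75978458. Pecam1 is at chr11:106654217-106750628, Wnt9b at chr11:103727364-103749821 and Wnt2 at chr6:17988940-18030585. RefSeq promoters of the build GRCm38.p6, which shares its coordinates with mm10, were at hand for 6 of the 10 (Stab1, Stab2, Clec4g, Kdr, Wnt2 and Wnt9b). Motifs were searched on both strands in the 250 bases before each start: AGGAAG, a core that ETS factors such as ERG and FLI1 of endothelium bind, and AGATAA, a core that GATA factors bind. AGGAAG stood in 3 of the 6 (1 match each in Stab1 and Stab2, and 3 in Clec4g, of which 2 overlap), against 29.5% of all 32851 promoters. The match of Stab2 lay in the 83 of its 250 bases that are inside the GENCODE gene. AGATAA stood in 0 of the 6, against 9.99% of all promoters. The 4 promoters below belong to genes the results turn on, a scavenger receptor, the gene with the highest level, a gene that fell and a signal. Capitals mark AGGAAG or its reverse complement, and bases inside the GENCODE gene are left out.
Stab1, chr14:31168642-31168891, minus strand, 250 bases: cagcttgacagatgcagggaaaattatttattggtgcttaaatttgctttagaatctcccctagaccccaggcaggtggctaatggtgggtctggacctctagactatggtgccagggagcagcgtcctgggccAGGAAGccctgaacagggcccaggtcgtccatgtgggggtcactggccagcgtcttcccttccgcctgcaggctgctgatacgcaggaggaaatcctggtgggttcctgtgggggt
Clec4g, chr8:3720652-3720901, minus strand, 250 bases: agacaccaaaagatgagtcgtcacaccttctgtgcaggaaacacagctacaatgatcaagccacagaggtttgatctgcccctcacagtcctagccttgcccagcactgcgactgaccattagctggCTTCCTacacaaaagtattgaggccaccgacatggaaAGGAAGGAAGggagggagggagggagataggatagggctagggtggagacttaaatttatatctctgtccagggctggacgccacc
Kdr, chr5:75978459-75978705, minus strand, 247 bases: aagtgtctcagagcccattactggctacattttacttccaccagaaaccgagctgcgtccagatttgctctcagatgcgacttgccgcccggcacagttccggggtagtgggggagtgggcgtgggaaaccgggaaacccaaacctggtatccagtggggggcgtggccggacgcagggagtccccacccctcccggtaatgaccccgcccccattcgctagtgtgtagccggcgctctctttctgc
Wnt2, chr6:18030586-18030695, minus strand, 110 bases: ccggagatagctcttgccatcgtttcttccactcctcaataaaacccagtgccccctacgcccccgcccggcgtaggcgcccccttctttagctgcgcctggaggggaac

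Levels of different genes were set side by side as FPKM, which divides by transcript length. Over the 16 libraries Clec4g, a lectin of the sinusoidal endothelium, was highest with a mean of 28.9 FPKM (lowest 23.7, highest 38.5). Its range lay above that of Stab1, the next, in each of the 4 groups. Stab1 had a mean of 10.8 FPKM, Oit3 7.54, Stab2 6.88, Kdr 5.54, Pecam1 5.30 and Lyve1 3.63. The ranges of Stab2 and Kdr overlapped in all 4 groups, as did those of Kdr and Pecam1, so their order is not settled. Of the signals, Rspo3 had a mean of 1.48 FPKM, Wnt2 1.03 and Wnt9b 0.261. Rspo3 and Wnt2 overlapped in both groups after regeneration but not before it, and Wnt9b lay below Wnt2 in each group. Wnt9b rested on few reads, between 5 and 42 counts per library, against 19 to 74 for Wnt2 and 45 to 124 for Rspo3. Whole-liver RNA cannot tell fewer endothelial cells from less RNA per cell, and this holds for each value below.

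**Figure D1:**
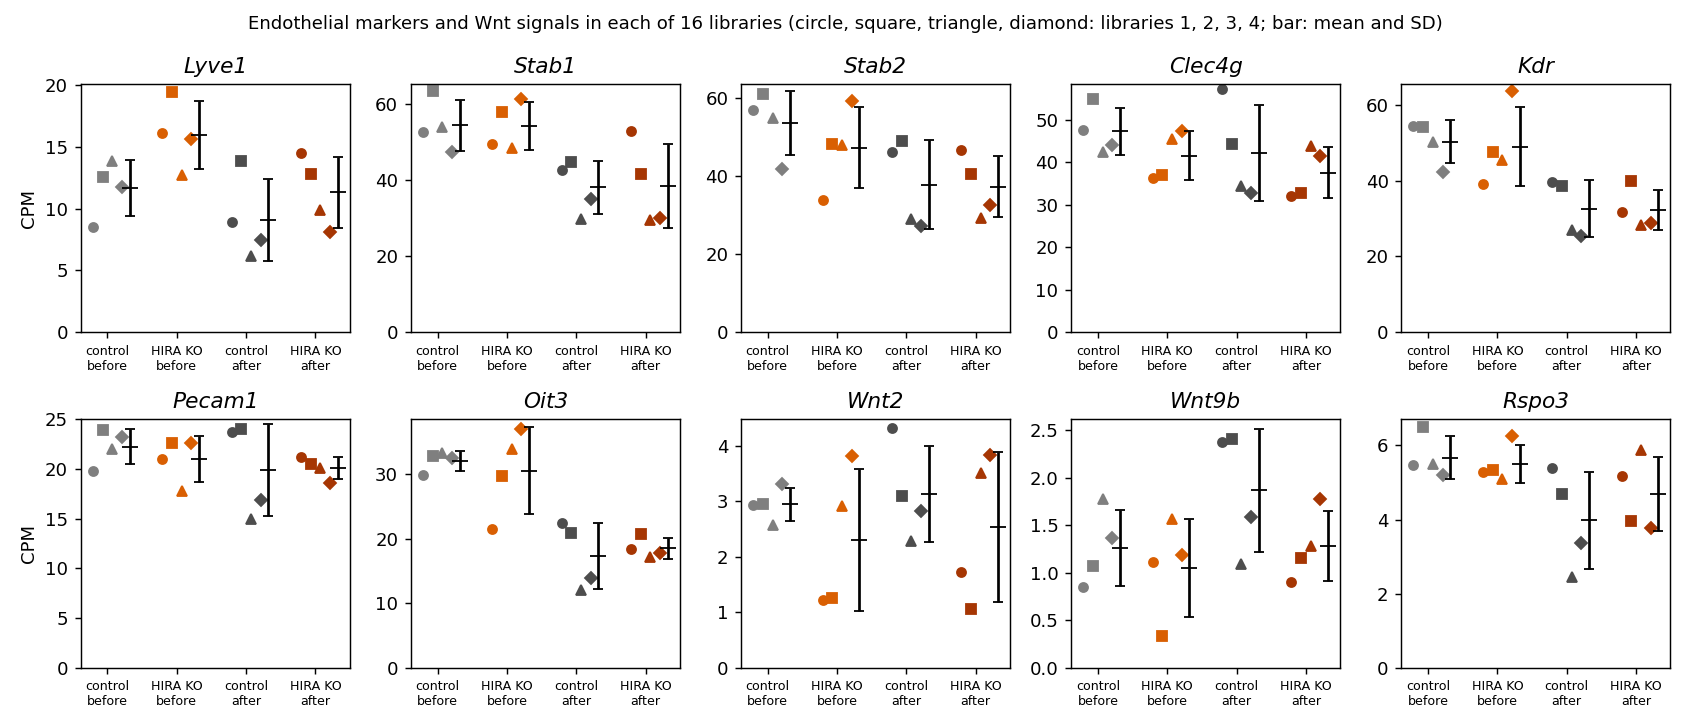
CPM (vertical axes, from 0) of the 7 endothelial markers and 3 Wnt signals in the 16 libraries, with 1 point a library, shapes for the library numbers 1 to 4, and the bar giving mean and SD of each group of 4. Oit3 lay between 12.0 and 22.5 in control after and between 29.8 and 33.3 in control before, while Wnt2 lay at 1.22, 1.27, 1.72 and 1.07 in the HIRA KO libraries numbered 1 and 2.

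After regeneration 2 of the 7 endothelial markers, Oit3 and Kdr, were lower than before it in control and in HIRA KO liver, and no member was called higher. Oit3, a secreted protein made by sinusoidal endothelial cells in liver, had the lowest log2 fold change in both. In control liver 2 of the 10 genes were called lower at an adjusted p under 0.05, where 4.17% of all genes were called lower and 10.2% were called in either direction. In HIRA KO liver 2 of the 10 were called lower, where 5.53% of all genes were called lower and 12% in either direction. The median log2 fold change of the 7 markers was -0.51 in control and -0.49 in HIRA KO, beside 0.00 and 0.02 over all genes tested.

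Oit3 stood at 29.8, 32.8, 33.3 and 32.5 CPM in control before and at 22.5, 20.9, 12.0 and 14.0 in control after. All 4 libraries after lay below all 4 before. In HIRA KO it went from 21.5, 29.7, 34.0 and 37.0 CPM before to 18.4, 20.7, 17.1 and 17.8 after, again without overlap. The log2 fold change was -0.89 ± 0.18 (SE) in control (adjusted p = 0.0047, edgeR), a level after of 54.0% of that before. In HIRA KO it was -0.72 ± 0.18 (adjusted p = 0.0151, edgeR), or 60.6%. In HIRA KO the call was lost without the before library numbered 3 (adjusted p = 0.0539) or numbered 4 (adjusted p = 0.0552).

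Kdr encodes VEGF receptor 2, through which VEGF-A drives endothelial growth. It stood at 54.5, 54.0, 50.2 and 42.2 CPM in control before and at 39.7, 38.5, 27.0 and 25.4 in control after, with no overlap. In HIRA KO it went from 39.0, 47.6, 45.5 and 63.6 CPM to 31.8, 39.9, 28.4 and 28.8, and the highest library after lay just above the lowest before. The log2 fold change was -0.62 ± 0.17 in control (adjusted p = 0.0255, edgeR) and -0.60 ± 0.17 in HIRA KO (adjusted p = 0.0283, edgeR). The call depended on single libraries and on the method. It was lost in control without before libraries 1, 2 or 3 or after libraries 3 or 4 (adjusted p up to 0.0923), and in HIRA KO without before libraries 2, 3 or 4 or after libraries 1, 3 or 4 (adjusted p up to 0.109). With limma on the FPKM values it was also lost (adjusted p = 0.0712 in control and 0.0742 in HIRA KO at a pseudocount of 1).

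The stabilins did not pass the test with edgeR and all libraries. Stab1 stood at 52.8, 63.7, 54.1 and 47.6 CPM in control before and at 42.8, 44.9, 29.8 and 35.1 after, so all 4 libraries after lay below all 4 before. Its log2 fold change was -0.52 ± 0.17 in control (adjusted p = 0.0696, edgeR) and -0.49 ± 0.17 in HIRA KO (adjusted p = 0.0733, edgeR). In control it was called by DESeq2 (adjusted p = 0.0421) and by edgeR with only the 2 groups compared (adjusted p = 0.0227). Without the HIRA KO libraries numbered 1 and 2 it was called in both genotypes, at -0.52 ± 0.13 in control (adjusted p = 0.0116, edgeR) and -0.87 ± 0.19 in HIRA KO (adjusted p = 0.0095, edgeR). That fit called 17.9% of all genes tested in control, more than the 10.2% with all libraries, and 10.3% in HIRA KO. Stab2 went from a mean of 53.6 ± 8.25 CPM (SD, n = 4) to 37.7 ± 11.3 in control and from 47.2 ± 10.4 to 37.2 ± 7.82 in HIRA KO. Its log2 fold change was -0.51 ± 0.21 in control (adjusted p = 0.158, edgeR) and -0.34 ± 0.21 in HIRA KO (adjusted p = 0.327, edgeR), and the ranges overlapped in both.

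The other markers moved less or varied more. Lyve1 had a log2 fold change of -0.36 ± 0.24 in control (adjusted p = 0.395, edgeR) and -0.49 ± 0.23 in HIRA KO (adjusted p = 0.181, edgeR). Clec4g stood at 47.3 ± 5.56 CPM (SD, n = 4) in control before and 42.2 ± 11.2 after, a log2 fold change of -0.17 ± 0.16 (adjusted p = 0.612, edgeR). In HIRA KO it was -0.15 ± 0.16 (adjusted p = 0.624, edgeR). Pecam1, an adhesion molecule of all endothelium, had log2 fold changes of -0.16 ± 0.14 in control and -0.07 ± 0.14 in HIRA KO (adjusted p = 0.541 and 0.812, edgeR). All 4 libraries after lay below all 4 before for 3 of the 10 genes in control (Oit3, Kdr and Stab1) and for 1 in HIRA KO (Oit3), against 8.98% and 7.45% of all genes.

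Set against Pecam1 in the same library, Oit3 and Kdr were still lower in control after regeneration. Oit3 stood at 145 ± 7.05 CPM per 100 CPM of Pecam1 (SD, n = 4) in control before and 86.3 ± 6.28 after. Kdr stood at 228 ± 37.8 before and 165 ± 12.3 after. These 2 of the 9 ratios did not overlap in control, where 3.15% of all genes set against Pecam1 lay wholly lower. In HIRA KO the ratios of Oit3 and Lyve1 lay wholly lower after, 2 of 9 against 4.19% of all genes. For Oit3 they ran from 85.1 to 101 after and from 102 to 191 before. These ratios were formed after the values were seen and carry no test.

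None of the 3 signals passed the test after regeneration in either genotype. Wnt2 stood at 2.93, 2.96, 2.58 and 3.31 CPM in control before and at 4.32, 3.09, 2.29 and 2.83 after, a log2 fold change of 0.09 ± 0.39 (adjusted p = 0.932, edgeR). Wnt9b stood at 0.845, 1.08, 1.77 and 1.36 CPM in control before and at 2.38, 2.41, 1.09 and 1.58 after. Its log2 fold change was 0.56 ± 0.38 in control (adjusted p = 0.413, edgeR) and 0.28 ± 0.39 in HIRA KO (adjusted p = 0.703, edgeR). Rspo3 stood at 5.47, 6.51, 5.49 and 5.21 CPM in control before and at 5.39, 4.70, 2.45 and 3.36 after, a log2 fold change of -0.52 ± 0.22 (adjusted p = 0.149, edgeR). In HIRA KO it was -0.23 ± 0.21 (adjusted p = 0.544, edgeR).

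**Figure D2:**
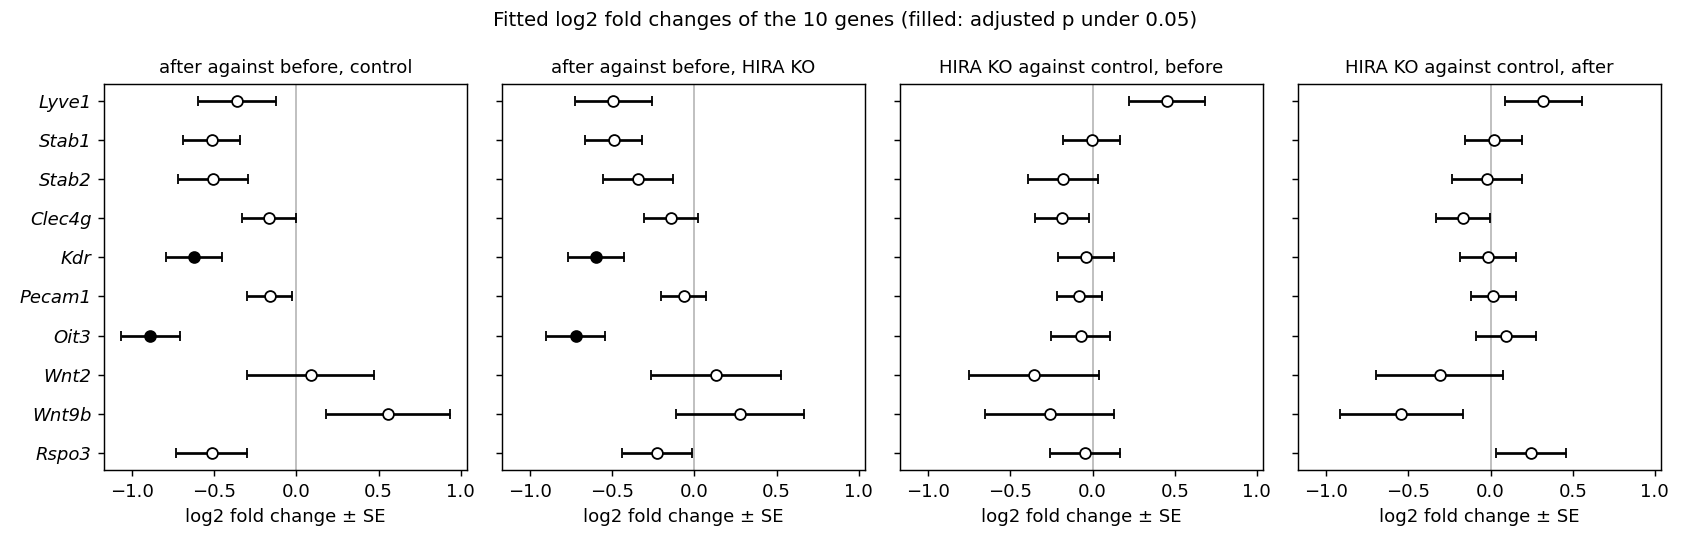
Fitted log2 fold change (horizontal axes) with its SE for the 10 genes in 4 comparisons, filled where the adjusted p of edgeR was under 0.05. Only Oit3 and Kdr are filled, in both comparisons of after with before, and in neither comparison of HIRA KO with control is any gene filled.

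The libraries after regeneration differed among themselves. In control after, each of the 10 genes was higher in the libraries numbered 1 and 2 than in those numbered 3 and 4, as were 24.4% of all genes tested. The 7 markers summed to 241, 235, 153 and 159 CPM in these 4 libraries, and to between 243 and 303 CPM in control before. In HIRA KO after, 6 of the 7 markers (all but Clec4g) were higher in libraries 1 and 2, and the sums were 218, 209, 178 and 177 CPM. Clec4g, Wnt2 and Wnt9b were lower in libraries 1 and 2 there. The share of all genes split this way in HIRA KO after is not given here, so this is a description. Summed CPM of 8 mitosis and replication genes was 40.3, 126, 303 and 248 in the 4 control libraries after and between 4.26 and 10.6 before. In HIRA KO after it was 64.3, 42.9, 269 and 82.7. Whether the stage of proliferation had a part in the marker levels was not tested.

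No difference between HIRA KO and control passed the test in any of the 10 genes. Before regeneration 0 of the 10 were called by edgeR, where 0.0391% of all genes were called. An unadjusted p under 0.05 (edgeR) was reached by 0 of the 10 and by 3031 of the 23018 genes tested. After regeneration 0 of the 10 were called, where 0.491% of all genes were called. An unadjusted p under 0.05 was then reached by 0 of the 10 and by 3629 of the 23018 genes. With 10 genes, 0 is not far from these shares. DESeq2 and limma also called 0 at both times, but their shares over all genes are not given here. The groups overlapped for all 10 genes before and after, where 8.07% and 8.1% of all genes did not overlap. The lowest adjusted p of a member was 0.419 before and 0.518 after.

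Stab1 had a log2 fold change of HIRA KO against control of 0.00 ± 0.17 before and 0.02 ± 0.17 after, Kdr of -0.04 ± 0.17 and -0.02 ± 0.17, and Pecam1 of -0.08 ± 0.14 and 0.02 ± 0.14. Oit3 lay at -0.07 ± 0.18 before and 0.09 ± 0.18 after, and Stab2 at -0.18 ± 0.21 and -0.02 ± 0.21. Clec4g lay at -0.19 ± 0.16 before and -0.17 ± 0.16 after. Without the HIRA KO libraries numbered 1 and 2 none of these was called, where 0.0233% of all genes were called before and 0.0698% after. Several estimates changed sign. Oit3 was then at 0.15 ± 0.19 before and Kdr at 0.12 ± 0.19 before, Clec4g at 0.04 ± 0.19 after, and Stab1 at -0.33 ± 0.16 after (adjusted p = 0.468, edgeR).

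Lyve1 was the marker with the highest estimate. It stood at 8.50, 12.5, 13.9 and 11.7 CPM in control before and at 16.1, 19.4, 12.7 and 15.6 in HIRA KO before, where a single HIRA KO library lay within the control range. The log2 fold change was 0.45 ± 0.23 (adjusted p = 0.419, edgeR). After regeneration it was 0.32 ± 0.24 (adjusted p = 0.547, edgeR). Without the HIRA KO libraries numbered 1 and 2 it was 0.29 ± 0.27 before and 0.01 ± 0.28 after. Per 100 CPM of Pecam1, Lyve1 ran from 42.9 to 62.9 CPM in control before and from 69.0 to 85.6 in HIRA KO before. It was the only 1 of 9 ratios that did not overlap there, where 5.34% of all genes set against Pecam1 did not. Lyve1 is also made by lymphatic endothelium, and the 5 lymphatic genes (Pdpn, Prox1, Ccl21a, Reln and Flt4) summed to between 106 and 177 CPM in control before and between 120 and 198 in HIRA KO before. Prox1 is also made by hepatocytes and Reln by stellate cells, and Flt4 is also one of the further endothelial genes below. Prox1, Reln and Flt4 made up nearly all of these sums. Pdpn lay between 0.0572 and 0.398 CPM in control before, so the sums say little about lymphatic endothelium. None of the 4 lymphatic genes tested was called, and their part in the Lyve1 values was not tested.

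Wnt2 had its widest spread in HIRA KO. It stood at 1.22, 1.27, 2.92 and 3.82 CPM in HIRA KO before and at 1.72, 1.07, 3.51 and 3.84 after. Libraries 1 and 2 lay below every control library at both times, and libraries 3 and 4 lay within the range of the controls or above it. Against the control mean of the same time, Wnt2 was at 41.3%, 43.0%, 99.2% and 130% in the 4 libraries before and at 54.9%, 34.0%, 112% and 123% after. The log2 fold change of HIRA KO against control was -0.36 ± 0.40 before (adjusted p = 0.748, edgeR) and -0.31 ± 0.39 after (adjusted p = 0.752, edgeR). Without libraries 1 and 2 it turned to 0.20 ± 0.25 before and 0.25 ± 0.25 after (adjusted p = 0.930 and 0.773, edgeR).

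Wnt9b had a log2 fold change of -0.26 ± 0.39 before (adjusted p = 0.823, edgeR) and -0.54 ± 0.37 after (adjusted p = 0.518, edgeR). Without libraries 1 and 2 it was 0.13 ± 0.38 before and -0.26 ± 0.36 after. Wnt9b stood at 1.11, 0.333, 1.56 and 1.19 CPM in HIRA KO before and at 0.906, 1.15, 1.28 and 1.78 after. Rspo3 did not share the pattern of Wnt2. It stood at 5.29, 5.33, 5.10 and 6.26 CPM in HIRA KO before, between 89.9% and 110% of the control mean, and at 5.17, 3.95, 5.88 and 3.78 after. Its log2 fold change was -0.05 ± 0.21 before and 0.25 ± 0.22 after (adjusted p = 0.963 and 0.628, edgeR), and 0.01 ± 0.27 and 0.31 ± 0.27 without libraries 1 and 2.

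Of the 16 genes that hepatocytes turn on in answer to Wnt, 0 were called in HIRA KO against control at either time by edgeR, and their median log2 fold change was -0.34 before and -0.39 after, beside 0.01 and 0.02 over all genes. Without libraries 1 and 2 the medians were -0.06 and 0.01. Again 0 were called, where 0.0233% of all genes were called before and 0.0698% after. The libraries again differed by number. Glul stood at 20.1%, 12.5%, 97.3% and 99.7% of the control mean in the 4 HIRA KO libraries before and at 22.7%, 31.7%, 96.2% and 98.4% after. Slc1a2, a glutamate transporter of pericentral hepatocytes, stood at 19.9%, 23.8%, 74.3% and 72.7% before and at 18.3%, 24.6%, 75.0% and 76.2% after. In 10 of the 16 (Tbx3, Sp5, Notum, Glul, Rhbg, Slc1a2, Cyp2e1, Cyp1a2, Lect2 and Slc13a3) libraries 1 and 2 were the lowest at both times, as in 12.1% of all genes tested. Axin2, Lgr5, Nkd1, Znrf3, Rnf43 and Oat were not among them. Slc1a2 and the named members of that group were picked by this pattern, so it is a description.

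**Figure D3:**
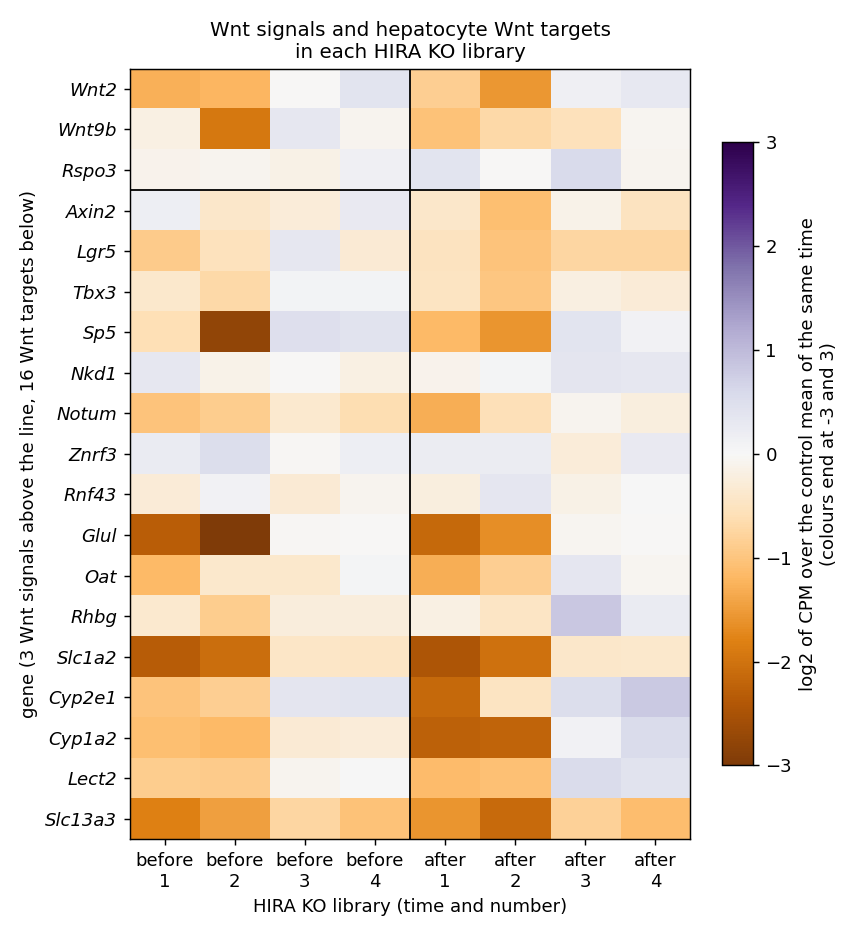
Log2 of CPM over the control mean of the same time (colour, orange lower and purple higher) for the 3 Wnt signals and 16 hepatocyte Wnt targets in the 8 HIRA KO libraries. Wnt2, Glul and Slc1a2 are low in the libraries numbered 1 and 2 at both times, where Glul stood at 20.1%, 12.5%, 22.7% and 31.7% of the control mean, and near the control mean for Wnt2 and Glul in those numbered 3 and 4.

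Gene lists of other cells also differed between these libraries. The 11 stellate genes summed to 679, 624, 400 and 417 CPM in HIRA KO before and to between 340 and 407 in control before. The 6 cholangiocyte genes summed to 143, 97.4, 57.7 and 73.6 CPM, against 47.8 to 72.3 in control before. The 10 periportal hepatocyte genes summed to 14770, 13372, 8543 and 8585 CPM, against 8367 to 10514. Most of that sum was Ass1 and Pck1, and the periportal list did not move as a whole. Its median log2 fold change of HIRA KO against control before was 0.06. In libraries 1 and 2 Ass1, Cyp2f2, Cdh1 and Aldh1b1 lay above every control library before. Hal lay below every control library there, at 258 and 324 CPM against 439 to 623. The 8 leukocyte genes summed to 23.8, 21.1, 10.1 and 8.52 CPM, against 7.81 to 12.6. The 8 hepatocyte genes summed to 163576, 146205, 118076 and 133349 CPM, against 104853 to 117708 in control before. Most of that sum was Alb, at 135375, 119600, 95625 and 109478 CPM, and the list did not move as a whole. In libraries 1 and 2 Ttr, Cps1 and Tat also lay above every control library before. Apoa1, Serpina1a and Hnf4a lay below every control library there, with Apoa1 at 2983 and 2384 CPM against 5516 to 8267. After regeneration the stellate genes summed to 584, 480, 391 and 412 CPM in HIRA KO and to between 232 and 440 in control, and the periportal genes to 7126, 10338, 4808 and 5775, against 4186 to 6185. The cholangiocyte genes summed to 131, 106, 111 and 81.1 CPM after, against 71.4 to 114, and the leukocyte genes to 34.8, 26.0, 23.8 and 27.0, against 19.4 to 24.9. The hepatocyte genes lay between 115368 and 143549 CPM in HIRA KO after, within the control range of 110217 to 157113. The 7 genes listed for endothelium on the portal side summed to 171, 172, 110 and 115 CPM in HIRA KO before, against 96.4 to 101 in control. Ltbp4 and Cd9 made up most of that sum, and 0 of the 7 were called, where 0.0391% of all genes were. After regeneration the portal genes summed to 157, 128, 99.0 and 86.1 CPM, against 92.6 to 104. The 7 genes listed for endothelium around the central vein summed to 39.6, 32.6, 47.4 and 39.1 CPM in HIRA KO before and to between 31.8 and 42.8 in control. After regeneration the same 7 summed to 35.9, 26.9, 41.3 and 36.2 CPM in HIRA KO and to between 33.5 and 59.5 in control, so libraries 1 and 2 were the lower pair after but not before. Of these 7, Lhx6 was picked for its values in these libraries. It stood at 2.65, 3.33, 19.9 and 12.8 CPM in HIRA KO before and between 8.20 and 15.8 in control before. After regeneration it stood at 4.30, 2.71, 12.0 and 12.2 in HIRA KO and between 6.58 and 15.6 in control. The rest of these 7 genes were divided. In HIRA KO before, Kit, Cdh13 and Selp were also lower in libraries 1 and 2 than in 3 and 4. Thbd, Fabp4 and Dkk3 were higher in libraries 1 and 2, with Thbd at 6.83, 5.93, 5.10 and 3.57 CPM. The part of cell makeup or sampled region in the Wnt2 values was not tested.

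Whether the change with regeneration depends on HIRA was tested as an interaction, and no member passed. The interaction was called for 0 of 10 by edgeR, DESeq2 and limma, where 0% of all genes were called by edgeR and 1568 genes had an unadjusted p under 0.05. None of the 10 did. The interaction was 0.02 ± 0.24 on the log2 scale for Kdr, 0.17 ± 0.25 for Oit3, 0.29 ± 0.30 for Rspo3 and -0.28 ± 0.54 for Wnt9b.

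The other endothelial genes did not move as a block after regeneration. Of 35 further sinusoidal or general endothelial genes, 3 were called higher and 3 lower in control, and 3 higher and 4 lower in HIRA KO. Over all genes tested 10.2% were called in control and 12% in HIRA KO. These shares are also the reference for the counts of the lists that follow. Their median log2 fold change was -0.21 in control and -0.28 in HIRA KO. Higher in both were the lectin Clec1b, Plvap and the junction cadherin Cdh5. Clec1b is made by sinusoidal endothelium and platelets among others, and Plvap forms the diaphragms of endothelial openings. All 12 Kupffer cell genes listed were also called higher in both genotypes. The part of Kupffer cell RNA in the values of Clec1b, Plvap and Cdh5 was not tested. Clec1b rose by 0.67 ± 0.14 on the log2 scale in control and by 1.25 ± 0.15 in HIRA KO, from means of 8.50 and 6.63 CPM to 13.5 and 15.8. Plvap had log2 fold changes of 0.55 ± 0.15 and 0.77 ± 0.15 (adjusted p = 0.0222 and 0.0030, edgeR), from 34.6 to 50.8 CPM in control and from 37.0 to 63.1 in HIRA KO.

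Ptprb, a phosphatase that restrains the receptor Tie2, and the guidance receptor Robo4 were lower in both. Ptprb fell from 66.3 ± 5.44 CPM (SD, n = 4) to 37.8 ± 10.8 in control and from 61.5 ± 10.5 to 33.6 ± 3.96 in HIRA KO. Robo4 had log2 fold changes of -0.85 ± 0.15 and -0.83 ± 0.15 (adjusted p = 0.0018 and 0.0020, edgeR). Flt1, VEGF receptor 1, was called lower in control alone at -0.72 ± 0.22 (adjusted p = 0.0495, edgeR), with -0.68 ± 0.22 in HIRA KO (adjusted p = 0.0567, edgeR), and the difference was not called. Vegfa, the main ligand of Kdr and a product of hepatocytes among others, was lower in both, at -0.74 ± 0.17 in control (adjusted p = 0.0111, edgeR) and -0.71 ± 0.17 in HIRA KO (adjusted p = 0.0131, edgeR). Of the 7 VEGF and angiopoietin ligands, 1 was called higher (Vegfd) and 1 lower in control, and 0 higher and 1 lower in HIRA KO.

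Of 7 genes listed for endothelium on the portal side, 2 were called higher and 4 lower in control, and 1 higher and 3 lower in HIRA KO. Efnb2, the arterial ephrin ligand, had log2 fold changes of -1.27 ± 0.33 and -1.34 ± 0.32 (adjusted p = 0.0197 and 0.0117, edgeR). Ntn4 and the matrix protein Ltbp4 were also lower in both. Higher in both was Msr1, a scavenger receptor that macrophages make in quantity. Of 7 genes listed for the central side, Thbd was called higher and Selp lower in control, and 0 were called in HIRA KO. Among 13 other endothelial signals, Bmp2 and Bmp6, with which sinusoidal endothelium sets hepcidin in hepatocytes, were lower in both. Bmp2 had log2 fold changes of -0.97 ± 0.20 and -0.92 ± 0.20, with adjusted p = 0.00559 and 0.00765 (edgeR). Bmp6 went from a mean of 7.56 to 3.78 CPM in control and from 8.63 to 4.64 in HIRA KO (adjusted p = 0.00228 and 0.00388, edgeR).

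**Figure D4:**
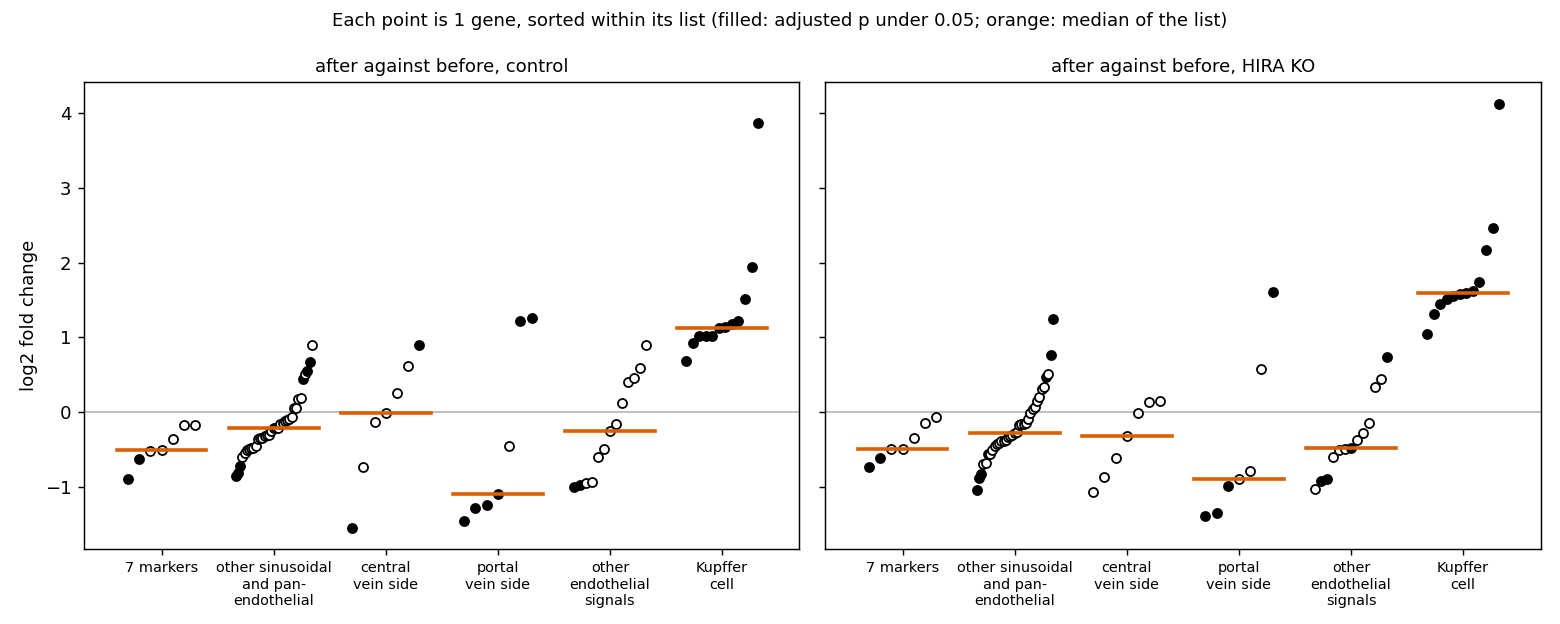
Log2 fold change of after against before (vertical axis) for each gene of 6 lists in control (left) and HIRA KO (right), filled where the adjusted p of edgeR was under 0.05, with the median of each list in orange. The medians of the 7 markers lie at -0.51 and -0.49, while all 12 Kupffer cell genes lie above 0.

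Of the other Wnt pathway genes, 11 of 20 further ligands and R-spondins were tested. In control 0 were called, and in HIRA KO 1 was lower (Wnt9a, named for being the only call). Wnt5b stood at 14.0, 11.3, 6.87 and 5.89 CPM in HIRA KO before and at 13.3, 26.8, 7.44 and 4.40 after, against 3.61 to 6.24 in the controls of both times. It was not called (adjusted p = 0.405 before and 0.192 after, edgeR). Of 34 receptors and transducers tested, 1 was called higher and 1 lower in control, and 0 higher and 7 lower in HIRA KO. Porcn, which acylates Wnt proteins for export, was lower in both, at -1.41 ± 0.30 and -1.06 ± 0.29 (adjusted p = 0.0061 and 0.0225, edgeR). Lgr5, a receptor for R-spondins, was lower in HIRA KO at -0.90 ± 0.25 (adjusted p = 0.0239, edgeR) and at -0.45 ± 0.24 in control (adjusted p = 0.279, edgeR). Of 16 inhibitors tested, 0 were called in control and 2 were lower in HIRA KO, among them Znrf3 at -0.51 ± 0.14 (adjusted p = 0.0260, edgeR).

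Of the 16 hepatocyte Wnt targets, 1 was called higher and 0 lower in control after regeneration, and 2 higher and 2 lower in HIRA KO. Lgr5, Nkd1, Notum, Rnf43 and Znrf3 are also in the receptor or inhibitor lists. The 2 lower calls, Lgr5 and Znrf3, are therefore the same calls as those given above. Slc13a3 was higher in both, at 1.15 ± 0.28 and 1.03 ± 0.29 (adjusted p = 0.0167 and 0.0302, edgeR), and Rhbg was higher in HIRA KO. Without the HIRA KO libraries numbered 1 and 2, 4 of the 16 were called in control, 3 of them lower, and 4 in HIRA KO, 2 of them lower. That fit called 17.9% of all genes tested in control and 10.3% in HIRA KO. Cyp2e1, which metabolises ethanol and many drugs, had log2 fold changes of -1.61 ± 0.51 and -1.44 ± 0.50 and was not called (adjusted p = 0.0587 and 0.0779, edgeR). Beside these, 12 of 12 Kupffer cell genes were called higher in both genotypes, with medians of 1.13 in control and 1.59 in HIRA KO, and 8 of 8 proliferation genes. The Kupffer genes summed to between 205 and 548 CPM in control before and between 898 and 1134 after. The part of these other cells' RNA in the marker values was not tested.

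The genes whose spread within groups was most like the mean of the 7 markers, over 16 libraries of log2(CPM + 1) less the group mean, were Tspan7 (Pearson r = 0.92), Bhmt (0.92), Tie1 (0.92), Fkbp15 (0.92) and Eng (0.91). Tie1 and Eng are endothelial receptors, while Bhmt is an abundant enzyme of hepatocytes. For the 3 signals they were Evi5l (0.93), Fdps (0.93), Gm3571 (0.91), 5830448L01Rik (0.91) and Harbi1 (0.91). These are the highest of many genes, and the points share their libraries and depth. In HIRA KO, Wnt2 and Wnt9b were lower in libraries 1 and 2 than in 3 and 4 at both times, and Rspo3 was not. That contrast enters the mean of the signals, and its part in these r values was not tested. Among the members themselves, Stab2 and Kdr were most alike (r = 0.90, n = 16), followed by Stab1 and Stab2 (r = 0.83), and Lyve1 and Wnt2 least (r = -0.36).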

How the data were processed

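Poly-A RNA-seq of 16 liver libraries in 4 groups of 4 was used. The authors aligned reads to mm10 with STAR, and their methods name HOMER for the counts, while the labels list STAR, HTSeq and Cufflinks. The deposited tables hold raw counts per gene and FPKM per gene (an empty FPKM cell was read as 0). Every column was assigned to a group by its name, and the columns unused in both tables numbered 0. From the counts, edgeR 4.0.16 (R 4.3.3) fitted the 4 group means with TMM scaling and a robust quasi-likelihood test on genes with at least 10 counts in total. P-values were adjusted by Benjamini-Hochberg over all genes tested, called at an adjusted p under 0.05. The fit was tested on simulated data. CPM were scaled by TMM. SE is the log2 fold change over the square root of F. Nothing says that replicates came from separate cages or days, so p-values measure the spread between these libraries.

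Alternatives were DESeq2 size factors in edgeR, no filter beyond 1 count, filterByExpr, no robust option, only the groups compared, DESeq2 1.42.0, limma 3.58.1 on log2(FPKM + 1) and log2(FPKM + 0.1), and leaving out each library. After the data were seen, a fit without the HIRA KO libraries numbered 1 and 2 was added. The 10 genes and all lists were chosen with earlier results of these data known. The text names all 10, and from each other list some of the called genes with a mean of at least 1 CPM and the largest change, up to 3 in each direction, or the 2 with the highest mean CPM where none was called. Slc1a2, Lhx6 and other genes named for their pattern across libraries were chosen after their values were seen. Genes near-identical to another copy and strand handling were not examined, since strand of counting is not given in the sources used here. Gene positions come from GENCODE M21, in which 54587 gene IDs of the table occur with the same version. The library kit keeps strand.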

Additional observations from a re-analysis of the deposited data

How the results depend on the processing

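No paired analysis was possible because the columns carry neither the replicate numbers of the labels nor the mouse or deletion approach. In HIRA KO against control and in the interaction, 0 of the 10 genes were called under each alternative run. Shares of all genes called under an alternative are given only for the fit without the HIRA KO libraries numbered 1 and 2. After against before in control, 2 genes were called, with 3 (Stab1 added) under DESeq2, with only the groups compared and without the HIRA KO libraries numbered 1 and 2, 1 under limma on log2(FPKM + 1) and on log2(FPKM + 0.1), and 1 to 2 with each library left out. In HIRA KO the 2 calls became 1 under both limma fits and with only the groups compared, 3 (Stab1 added) without the HIRA KO libraries numbered 1 and 2, and 0 to 2 with each library left out. Oit3 in control was called in 8 of 8 fits that leave out a library and in 8 of 8 others, with log2 fold changes from -1.03 to -0.74. Of 920 single values under an alternative, 0 reversed a call, 18 lost one, 5 gained one and 87 uncalled ones changed sign. Where a call was lost the cause was not tested, except that leaving out a library lowers the number of samples. Wnt9b and Wnt2 rest on as few as 5 and 19 counts in a library. The SE of Wnt2 in HIRA KO against control before was 0.40, and 0.25 without the HIRA KO libraries numbered 1 and 2.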
